A study of Mus musculus with 11 samples.

Results

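The interleukin-6 (IL-6) family genes of the table, the ligands Il6, Il11, Lif and Osm and the receptor chains Il6ra and Il6st, were described in the lungs of mice with resected breast tumors. They were chosen by name, and all 6 were found among the 770 genes of the table. The tumors came from 4T1-luc2, an established BALB/c line of triple-negative mammary carcinoma that carries luciferase and metastasizes to lung, and lungs of 11 mice were measured. In 6 mice (mice 9, 10, 13, 14, 15 and 16) the antibody was αChemR23, an agonist of ChemR23, the receptor encoded by Cmklr1. In 5 mice (mice 3, 4, 6, 7 and 8) it was hIgG1, the isotype control. All were BALB/c females that were 8 weeks old when the tumor cells were placed in the mammary fat pad on day 0. Both groups had the same surgery on day 13 and the same intraperitoneal dosing, with 3 injections of 1 mg/kg in each of 3 weeks between days 7 and 28. Each mouse gave 1 lung sample, digested into single cells before RNA extraction and taken at the critical endpoint of that mouse. No source used here gives the collection day of each mouse, so that this day and metastatic load cannot be told apart from the treatment. Part of the study's text gives other group sizes, and the sample labels were followed here.

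IL-6 family cytokines signal through a shared receptor chain, gp130 (encoded by Il6st), which activates Janus kinases and the transcription factor STAT3. IL-6 binds its own receptor chain (encoded by Il6ra) and IL-11 binds Il11ra1 before they engage gp130, whereas LIF and oncostatin M (encoded by Osm) pair gp130 with a second signaling chain. The family is known in the lung for acute phase responses, neutrophil recruitment, T helper 17 differentiation and the growth of metastases, and STAT3 induces its own inhibitor, Socs3.

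The promoters of the ligands are shown because the factors known to induce Il6, AP-1 and NF-kB, have short binding motifs that can be read in them. RefSeq windows of GRCm38.p6 matched 5 of the 6 members (all but Osm), and Il11 had 2 windows. The 250 bases before each transcript start were searched on both strands, with the base before the start counted as -1. Capitals mark the motif found.
Il6, chr5:30012864-30013113, plus strand, with AP-1 and NF-kB motifs: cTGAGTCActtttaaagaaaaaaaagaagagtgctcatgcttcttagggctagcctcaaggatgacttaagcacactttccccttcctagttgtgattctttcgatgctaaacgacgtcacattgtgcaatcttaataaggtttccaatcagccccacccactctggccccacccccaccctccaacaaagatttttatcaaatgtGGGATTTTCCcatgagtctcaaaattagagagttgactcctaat
Lif, chr11:4257318-4257371, plus strand, with the AP-1 motif read from the other strand: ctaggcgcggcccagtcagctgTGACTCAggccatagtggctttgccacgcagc
Il11, chr7:4778208-4778264, minus strand, with the AP-1 motif: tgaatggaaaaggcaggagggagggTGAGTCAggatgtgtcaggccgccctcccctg
Socs3, chr11:117969487-117969545, minus strand, with the STAT motif: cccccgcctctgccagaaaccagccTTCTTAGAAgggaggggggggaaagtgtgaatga
The AP-1 motif TGAGTCA began at -249 in Il6, at -228 in Lif and at -98 in 1 of the 2 windows of Il11, and it was found in 4.46% of all 32851 windows. The NF-kB motif (GGGA, any base, TT, any base, CC) began at -44 in Il6 and was found in 0.98% of windows. The STAT motif TTCNNNGAA was not found in the member windows and began at -154 in Socs3, and 7.02% of windows held it. The 3 motifs share no bases in these windows. Il6 had the window with the lowest GC content among the members, 42.8% against 58.8% to 66.0% in the others. Lif and Osm are next to each other on chromosome 11, with 0 genes between them. A match describes letters only, since binding was not measured.

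nCounter counts barcoded probe pairs on single RNA molecules, with no amplification step, and all levels below are log2 normalized counts as deposited. Probes differ between genes, so levels were compared between mice and not between genes. Totals were 526091 to 715706 normalized counts in αChemR23 lungs and 580102 to 667587 in hIgG1 lungs. Each mouse has a lowest value of its own, 8.85 to 16.16 normalized counts in αChemR23 lungs and 10.38 to 14.65 in hIgG1 lungs, below which levels are not resolved. Markers of lung endothelium were above it in every mouse (7 of 7, Pecam1 at 12.50 to 12.74), and so were those of neutrophils (10 of 10, S100a8 at 15.02 to 17.22). The 657 genes that averaged 20 or more normalized counts over all mice were compared by limma, and 4 members (Lif, Osm, Il6ra, Il6st) were among them. Il6 and Il11 were below this minimum.

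αChemR23 and hIgG1 lungs did not differ beyond the spread between mice in any of the 4 members tested. At an adjusted p under 0.05, 0 of 4 members were called, with 0% of the 657 genes called. At an unadjusted p under 0.05 it was also 0 of 4, against 9.89% of the genes (7.15% higher and 2.74% lower in αChemR23 lungs). The groups overlapped in all 4 members, whereas they did not overlap in 1.07% of the genes. The median difference was -0.03 over the 4 members and 0.03 over the 657 genes.

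**Figure D1:**
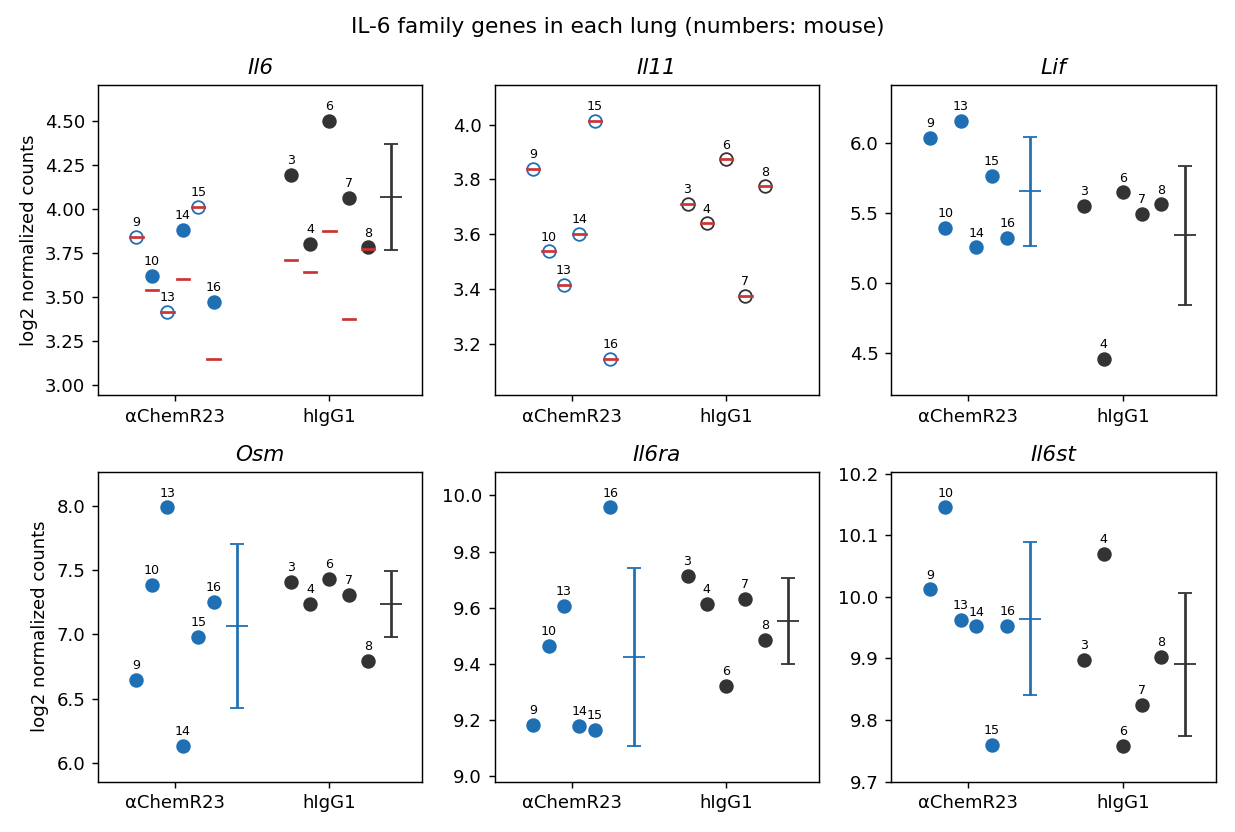
The log2 normalized counts of the 6 genes are drawn for each lung, with αChemR23 mice in blue on the left and hIgG1 mice in black on the right (numbers: mouse; bars: mean ± SD; the vertical scale differs between panels). Open circles are values at the lowest value of that mouse, which red lines mark for Il6 and Il11: Il11 is there in all 11 mice and Il6 in 3 αChemR23 mice.

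Il6, the cytokine itself, was close to the lower limit of the assay. In αChemR23 lungs it was at 3.62 in mouse 10, 3.88 in mouse 14 and 3.47 in mouse 16. In mice 9, 13 and 15 it lay at the mouse's own lowest value (3.84, 3.42 and 4.01), so that these are upper limits. In hIgG1 lungs it was at 4.20, 3.80, 4.50, 4.06 and 3.78 in mice 3, 4, 6, 7 and 8. Il6 was thus above the lowest value in 3 of 6 αChemR23 lungs and in 5 of 5 hIgG1 lungs, although mouse 8 exceeded its own only barely, and the groups overlapped. These counts depend on each mouse's own lowest value. In αChemR23 mice 9 and 15 it lay above the levels counted as resolved in hIgG1 mice 4 and 8.

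These values rest on few molecules. The estimated raw counts were 12, 17 and 10 in the 3 αChemR23 lungs with a resolved value, and 20, 14, 24, 16 and 14 in the hIgG1 lungs. The highest, 24 in hIgG1 mouse 6, has a 95% Poisson interval of 15.4 to 35.7, and the lowest, 10 in αChemR23 mouse 16, one of 4.80 to 18.4, which cover counting error only. The mean was 3.71 ± 0.24 in αChemR23 lungs and 4.07 ± 0.30 in hIgG1 lungs (SD), a difference of -0.36 (exact two-sided permutation test, p = 0.0584, n = 6 and 5, smallest p possible 0.00216). With 1 common lowest value for all mice the difference was -0.14 (exact permutation p = 0.0606). The difference therefore did not pass the threshold, and its size depended on how values at the lower limit were treated.

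Il11, an IL-6 family cytokine of stromal cells, was at the lowest value in all 6 αChemR23 lungs and in all 5 hIgG1 lungs. It was therefore not resolved in either group. The computed difference of -0.08 (exact permutation p = 0.619) compares only these lowest values and is no measure of Il11. Il11ra1, which encodes the receptor chain of IL-11, was measured in every mouse. It was at 5.30, 5.65, 5.05, 5.35, 4.89 and 5.70 in αChemR23 mice 9, 10, 13, 14, 15 and 16, against 5.87, 5.45, 5.62, 5.73 and 5.73 in hIgG1 mice 3, 4, 6, 7 and 8. The αChemR23 lungs lay mostly lower and overlapped the hIgG1 lungs through mice 10 and 16. The means were 5.32 ± 0.32 and 5.68 ± 0.16 (difference -0.36, SE 0.16, 95% interval -0.71 to -0.01, adjusted p = 0.483 by limma), which did not pass the adjusted threshold.

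Lif encodes leukemia inhibitory factor, which acts through its own receptor chain and gp130. Its levels were 6.03, 5.39, 6.16, 5.25, 5.76 and 5.32 in αChemR23 mice 9, 10, 13, 14, 15 and 16. In hIgG1 mice 3, 4, 6, 7 and 8 they were 5.55, 4.45, 5.64, 5.49 and 5.56. αChemR23 mice 9, 13 and 15 lay above every hIgG1 lung and mice 10, 14 and 16 lay between hIgG1 mouse 4, far below, and the other four. That lung held an estimated 22 raw counts of Lif (95% Poisson interval 13.8 to 33.3), against 43 to 53 in the other hIgG1 lungs. The means were 5.65 ± 0.39 in αChemR23 lungs and 5.34 ± 0.50 in hIgG1 lungs, a 1.24-fold ratio (95% interval 0.862 to 1.79; log2 difference 0.31, SE 0.24, adjusted p = 0.648 by limma). By the size of the difference Lif was 59th of the 657 genes, and by p it was 219th. Without hIgG1 mouse 4 the log2 difference was 0.092, so that this 1 lung accounted for most of it.

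Osm encodes oncostatin M, a product of neutrophils, macrophages and T cells that acts on stromal and endothelial cells. It was at 6.64, 7.39, 7.99, 6.13, 6.98 and 7.26 in αChemR23 mice 9, 10, 13, 14, 15 and 16, against 7.41, 7.24, 7.43, 7.31 and 6.79 in hIgG1 mice 3, 4, 6, 7 and 8. The highest (mouse 13) and the lowest (mouse 14) lungs were both αChemR23, and the hIgG1 lungs lay between them. In normalized counts the αChemR23 lungs spanned 3.63-fold, from 70.08 to 254.41, and the hIgG1 lungs 1.56-fold, from 110.97 to 172.8. The estimated raw counts were 81 to 246 in αChemR23 lungs and 113 to 186 in hIgG1 lungs. The means were 7.07 ± 0.64 and 7.24 ± 0.26, a ratio of 0.887 (95% interval 0.593 to 1.33; log2 difference -0.17, SE 0.27, adjusted p = 0.866 by limma). Without αChemR23 mouse 14 the log2 difference was 0.014, so that even its direction rested on that mouse. Whether the 2 groups differ in their spread was not tested.

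Il6ra encodes the ligand-binding chain of the IL-6 receptor, carried by myeloid cells, some T cells and hepatocytes. Its levels were 9.18, 9.46, 9.60, 9.18, 9.16 and 9.96 in αChemR23 mice 9, 10, 13, 14, 15 and 16. In hIgG1 mice 3, 4, 6, 7 and 8 they were 9.71, 9.61, 9.32, 9.63 and 9.48. αChemR23 mice 9, 14 and 15 lay below all hIgG1 lungs and mouse 16 above all of them. The means were 9.43 ± 0.32 and 9.55 ± 0.15, a ratio of 0.916 (95% interval 0.742 to 1.13; log2 difference -0.13, SE 0.14, adjusted p = 0.780 by limma). Without αChemR23 mouse 16 the log2 difference was -0.234 (unadjusted p = 0.0495, adjusted p = 0.397 by limma).

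Il6st, which encodes the shared chain gp130, was the steadiest member. It was at 10.01, 10.14, 9.96, 9.95, 9.76 and 9.95 in αChemR23 mice 9, 10, 13, 14, 15 and 16, against 9.90, 10.07, 9.76, 9.82 and 9.90 in hIgG1 mice 3, 4, 6, 7 and 8. The groups covered nearly the same range, 1.31-fold in αChemR23 lungs and 1.24-fold in hIgG1 lungs. The means were 9.96 ± 0.12 and 9.89 ± 0.12, a 1.05-fold ratio (95% interval 0.938 to 1.18; log2 difference 0.07, SE 0.08, adjusted p = 0.752 by limma). A change of Il6st by more than 1.18-fold upward therefore lay outside its interval, whereas the intervals of Lif and Osm were wider.

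The 4 members differed in how much they varied between mice of the same group. The SD within groups on the log2 scale was 0.51 for Osm (43rd highest of 657 genes) and 0.44 for Lif (68th), while it was 0.26 for Il6ra (265th) and 0.12 for Il6st (537th), with a median of 0.22 over the genes. Osm and Lif thus lay among the more variable genes, and Il6st among the less variable ones. The ranks were not adjusted for count level, and low counts carry more counting error. Over all mice Lif averaged 47.4 normalized counts and Osm 148.7, against 725.8 for Il6ra and 979.0 for Il6st. The SD of Osm was 0.64 in αChemR23 lungs and 0.26 in hIgG1 lungs. For Lif it was 0.39 and 0.50, and the hIgG1 value includes the far lung of mouse 4.

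Levels in whole lung RNA follow cell composition too, and fewer cells of a type and less RNA per cell cannot be told apart. The members were therefore set against marker scores, the mean log2 level of the markers of a cell type in each mouse. Of 38 relations computed, 5 had an unadjusted permutation p under 0.05 and none passed after adjustment (adjusted p = 0.210 for each of the 5). Il6ra was higher in lungs with a higher neutrophil score (11 mice, Pearson r = 0.752, permutation p = 0.00752; Spearman rho = 0.818, permutation p = 0.00360). The r was 0.597 without the 2 lungs farthest from the median score and 0.750 within the 6 αChemR23 mice (exact permutation p = 0.0903). The 5 hIgG1 mice are too few for a correlation of their own. Il6ra was lower where the epithelial and carcinoma score was higher (r = -0.673, permutation p = 0.0212; rho = -0.836, permutation p = 0.00228), with -0.576 without the 2 farthest lungs.

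Osm showed the same sign with neutrophils (r = 0.660, permutation p = 0.0276; rho = 0.627, permutation p = 0.0435), but r was 0.391 without the 2 farthest lungs, and thus rested largely on them. αChemR23 mouse 14 had the lowest neutrophil score, 8.55, and the lowest Osm. Osm was lower where the fibroblast and stromal score was higher (r = -0.667, permutation p = 0.0252; rho = -0.673, permutation p = 0.0277), with -0.872 without the 2 farthest lungs. Il6st was higher with the endothelial score (r = 0.679, permutation p = 0.0219; rho = 0.664, permutation p = 0.0308), with 0.606 without the 2 farthest lungs. Il6ra and Osm, the member pair closest to each other, gave r = 0.573 (permutation p = 0.0629; rho = 0.455, permutation p = 0.163; adjusted p = 0.398).

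The neutrophil score was 8.55 to 10.30 in αChemR23 lungs and 9.47 to 9.98 in hIgG1 lungs, so that the αChemR23 lungs were spread more widely for this cell type too. The endothelial score was 11.30 to 11.62 in αChemR23 lungs and 11.33 to 11.50 in hIgG1 lungs. With the neutrophil score as a covariate the log2 difference was -0.077 for Il6ra and -0.086 for Osm, and neither passed the threshold (adjusted p = 0.772 and 0.908 by limma).

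**Figure D2:**
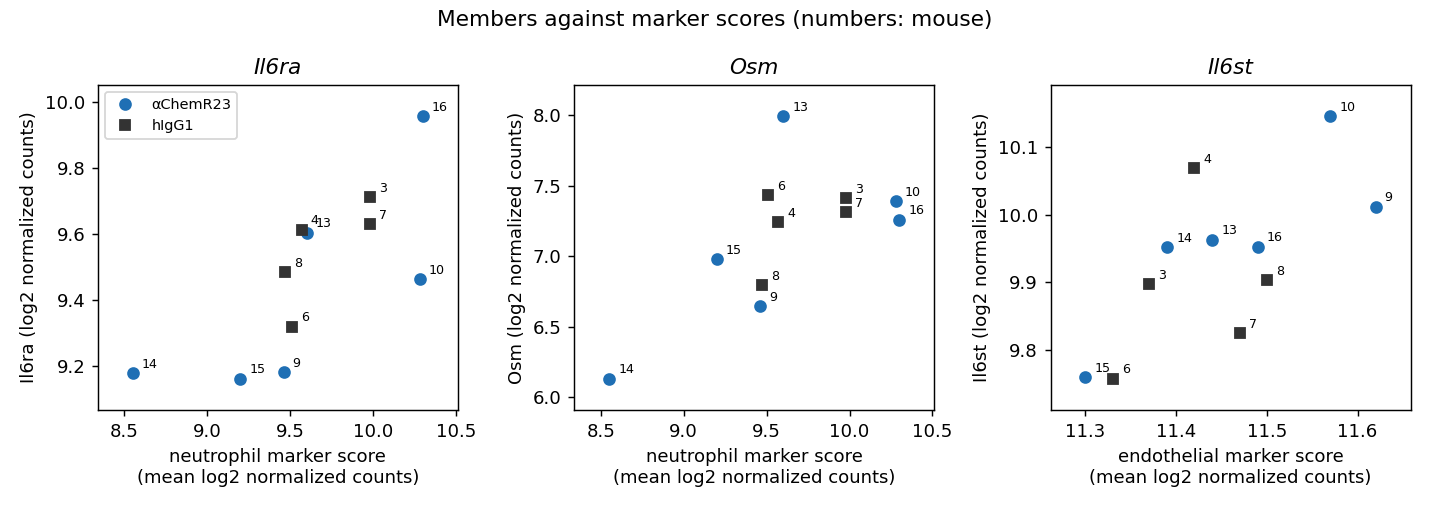
Each point is 1 lung (blue circles αChemR23, black squares hIgG1, numbers: mouse), with the marker score of a cell type on the horizontal axis and the level of the gene on the vertical axis, both in log2 normalized counts. Il6ra and Osm are drawn against the neutrophil score (r = 0.752 and 0.660) and Il6st against the endothelial score (r = 0.679), and αChemR23 mouse 14 is the lung with the lowest neutrophil score and Osm level.

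The genes whose levels followed each member most closely were listed as a description, over the 11 mice with each group centered on its own mean, among 656 genes. For Il6ra they were Sbno2, a transcriptional coregulator (r = 0.942), Card9, an adaptor of C-type lectin receptors in myeloid cells (r = 0.932), and Csf3r, the receptor of granulocyte colony-stimulating factor (r = 0.916). For Osm the closest was Il1r2, the decoy receptor of interleukin-1 (r = 0.834). Next were Gpi1, a glycolytic enzyme (r = 0.818), and Jun, a subunit of AP-1 (r = 0.790). Within αChemR23 lungs alone, r with Osm was 0.889 for Il1r2, 0.854 for Gpi1 and 0.913 for Jun. Within hIgG1 lungs alone it was 0.419, 0.546 and 0.048. The hIgG1 lungs are too few for a correlation of their own, and a difference between the groups was not tested.

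For Lif the closest genes were Lta, which encodes lymphotoxin alpha (r = 0.830), Cxcl1, a chemokine that attracts neutrophils (r = 0.779), and Cd3eap, a subunit of RNA polymerase I (r = 0.707). Within αChemR23 lungs alone r with Lif was 0.783, 0.589 and 0.637. Within hIgG1 lungs, which include the far Lif value of mouse 4, it was 0.864, 0.913 and 0.774. For Il6st the closest genes were Abca1, a cholesterol exporter (r = 0.840), App, the amyloid precursor protein (r = 0.731), and Ceacam1, an adhesion molecule (r = 0.730). Their Spearman rho with Il6st, on the same centered values, was 0.6, 0.709 and 0.718. Csf3r is also one of the neutrophil markers, and all these genes share the depth and scaling of each lung with the members.

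The other genes of the pathway were counted on lists, each against the 9.89% of all genes at an unadjusted p under 0.05, and 0 genes of these lists passed the adjusted threshold. Of 17 genes listed as gp130 ligands, receptors and related genes, 5 were in the table and 3 were tested. Of these 1 (Il11ra1) was lower at the unadjusted threshold (median difference 0.03). Ebi3, the subunit shared by interleukin-27 and interleukin-35, was at 7.25 ± 0.39 in αChemR23 lungs and 7.22 ± 0.26 in hIgG1 lungs (log2 difference 0.03, SE 0.18). Il12a, the p35 subunit of interleukin-12, had a log2 difference of 0.25 (SE 0.13, adjusted p = 0.495 by limma). Il27 was above the lowest value in 5 of 6 αChemR23 lungs and 2 of 5 hIgG1 lungs, and Il23a in 3 of 6 and 0 of 5, and neither reached the minimum for a test. Such counts depend on each mouse's own lowest value. The mean levels did not follow them, with 3.92 in αChemR23 and 3.96 in hIgG1 lungs for Il27, and 3.64 and 3.68 for Il23a.

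Of 17 kinases, STAT factors and Ras pathway genes that carry the gp130 signal, 10 were tested, and 6 were higher and 4 lower on average in αChemR23 lungs (median difference 0.05). Jak1, the main kinase of gp130, was at 11.05 in αChemR23 lungs and 10.99 in hIgG1 lungs (log2 difference 0.06, SE 0.08), and Jak2 had a difference of 0.12 (SE 0.06, adjusted p = 0.495 by limma). Stat3 was at 10.54, 10.74, 10.72, 10.50, 10.56 and 10.84 in αChemR23 mice 9, 10, 13, 14, 15 and 16, against 10.49, 10.64, 10.60, 10.67 and 10.63 in hIgG1 mice 3, 4, 6, 7 and 8. The groups overlapped for Stat3, with αChemR23 mice 10, 13 and 16 the highest (log2 difference 0.04, SE 0.07, adjusted p = 0.879 by limma). Hras, which carries the signal to MAP kinases, had a log2 difference of -0.19 (SE 0.17). Cebpb, a factor of the acute phase response, was the only 1 of the 10 at the unadjusted threshold, with 9.93 ± 0.28 in αChemR23 lungs and 10.24 ± 0.21 in hIgG1 lungs (log2 difference -0.30, SE 0.14, adjusted p = 0.483 by limma).

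**Figure D3:**
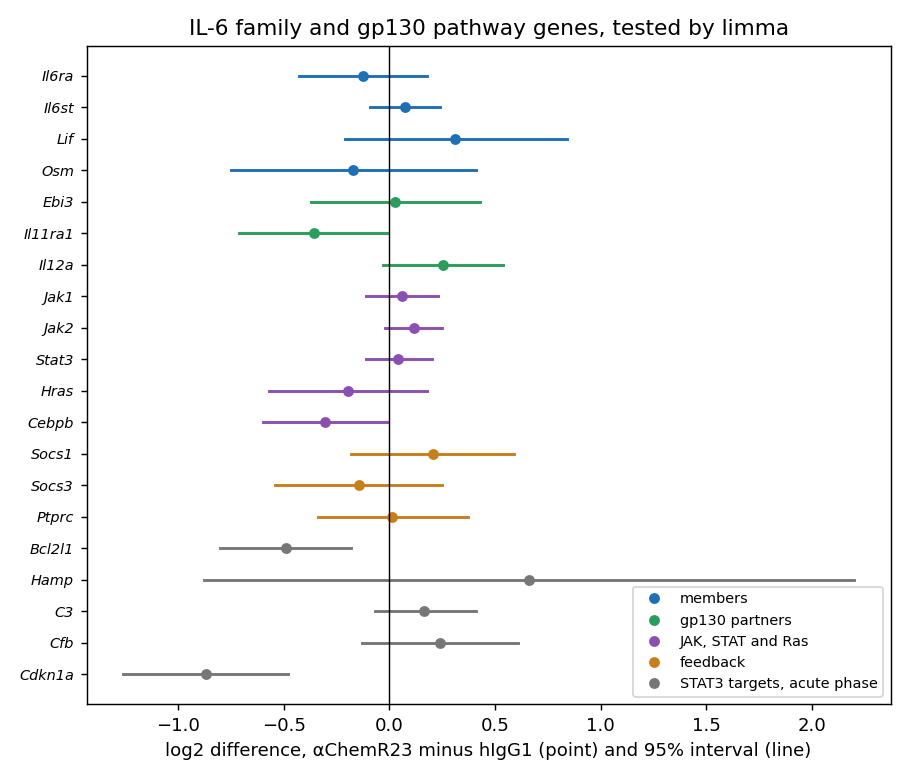
Points are log2 differences, αChemR23 minus hIgG1, and lines are 95% intervals from limma, for the 4 members tested (blue) and the genes of 4 pathway lists whose values are given in the text. All 4 member intervals cross 0, with those of Lif (-0.21 to 0.84) and Osm (-0.75 to 0.41) wider than those of Il6ra and Il6st.

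Of 9 feedback inhibitors, 3 were tested and none passed the unadjusted threshold (median difference 0.01). Socs3, whose promoter holds the STAT motif printed above, was at 7.22, 7.71, 8.11, 7.10, 7.31 and 7.85 in αChemR23 mice 9, 10, 13, 14, 15 and 16, against 7.60, 7.42, 7.62, 7.83 and 8.00 in hIgG1 mice 3, 4, 6, 7 and 8. As for Osm, the highest and lowest lungs were αChemR23 mice 13 and 14. The means of Socs3 were 7.55 ± 0.40 and 7.69 ± 0.22 (log2 difference -0.14, SE 0.18, adjusted p = 0.829 by limma). Socs1, another inhibitor of Janus kinases, had a difference of 0.20 (SE 0.18), and Ptprc, the phosphatase CD45, one of 0.01 (SE 0.16).

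Of 26 textbook STAT3 target and acute phase genes, 15 were tested, and 9 were higher and 6 lower on average in αChemR23 lungs (median difference 0.03). At the unadjusted threshold 0 were higher and 2 were lower, against 7.15% higher and 2.74% lower of the 657 genes. The list was chosen with earlier results of these data known, so this count is not independent of them. The 2 were Cdkn1a, a cell cycle inhibitor that p53 also induces, and Bcl2l1, an inhibitor of apoptosis. Cdkn1a was at 8.64, 9.44, 9.32, 8.62, 8.71 and 9.36 in αChemR23 mice 9, 10, 13, 14, 15 and 16, against 9.64, 10.29, 9.73, 9.92 and 9.82 in hIgG1 mice 3, 4, 6, 7 and 8. All αChemR23 lungs lay below all hIgG1 lungs (log2 difference -0.87, SE 0.18, adjusted p = 0.0886 by limma). Bcl2l1 had a log2 difference of -0.49 (SE 0.14, adjusted p = 0.301 by limma). The acute phase genes C3 and Cfb, of the complement system, had differences of 0.17 (SE 0.11) and 0.24 (SE 0.17), and Hamp, which encodes hepcidin, one of 0.66 with a large error (SE 0.71).

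Of 12 inducers of Il6, 10 were tested, 8 higher and 2 lower on average in αChemR23 lungs, and none passed the unadjusted threshold (median difference 0.07). The closest to it were Nfkb1, the p50 subunit of NF-kB (log2 difference 0.07, SE 0.06), Il1r1, the receptor of interleukin-1 (0.10, SE 0.09), Tlr2, a receptor of bacterial lipoproteins (0.14, SE 0.13), and Il18 (0.10, SE 0.11). Of 10 T helper 17 genes, 4 were tested and 1 was at the unadjusted threshold. This was Ccr6, a chemokine receptor of T helper 17 and B cells, at 6.46 in αChemR23 lungs and 6.07 in hIgG1 lungs (log2 difference 0.39, SE 0.16, adjusted p = 0.483 by limma). Beside it, the mean of the B cell markers was at 5.74 to 6.96 in αChemR23 lungs and 5.53 to 6.12 in hIgG1 lungs, with 4 of 4 tested markers higher on average, and their part in Ccr6 was not tested. Rora (0.11, SE 0.06) and Batf (0.02, SE 0.12), transcription factors of T helper 17 cells, did not pass, and Il17a was above the lowest value in 2 of 6 αChemR23 lungs and 0 of 5 hIgG1 lungs.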

How the data were processed

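RNA (50 ng) was measured on the nCounter Sprint. Normalization in nSolver was done by the authors, and log2 normalized counts of 770 genes were deposited. No source used here gives the nSolver settings. Raw counts were estimated by dividing normalized counts by a step fitted per mouse (0.8653 to 1.1081), which made 100% of values under 60 whole within 0.1, giving 590844 to 680812 counts per mouse. The sources' count model was not fitted to log2 values. Groups follow the labels. The 657 genes that averaged 20 or more normalized counts were compared in R 4.3.3 by limma 3.58.1 (trended eBayes), with Benjamini-Hochberg adjustment and a threshold of 0.05. Single values were compared by exact permutation over 462 splits, and correlations by 100000 permutations. limma and the exact test were checked on simulated data. Promoters are RefSeq windows, GRCm38.p6.

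Members and lists were chosen with earlier results of these data known. Named genes were the members, up to 4 genes per list with the smallest p, some pathway genes set by name and the 3 genes most correlated with each member, and a few of these are not reported here. Alternatives were a minimum mean of 50 or none, quantile normalization, equal medians, log2(value + 10), 1 common lowest value, robust eBayes, array weights, permutation and Mann-Whitney tests, the neutrophil score as a covariate and leaving out each mouse.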

Additional observations from a re-analysis of the deposited data

Results flagged for a closer look

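Among 57 groups of values tested for a sample far from the others, 2 were found, of which 1 is described here, and chance gives about 1 in 20. Lif in hIgG1 mouse 4 was at 4.45, below the other hIgG1 lungs at 5.49 to 5.64, and the gap was 0.868 of the group's range. No cause was tested.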

How the results depend on the processing

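No paired analysis was possible because no mouse number occurs in both groups. Il6ra, Il6st and Lif kept their direction, with adjusted p above the threshold, under every alternative that could be run (22, 22 and 21, since Lif fell under a minimum mean of 50). Leaving out 1 mouse at a time gave log2 differences of -0.234 to -0.075 for Il6ra, 0.038 to 0.118 for Il6st and 0.092 to 0.393 for Lif. Osm gave -0.358 to 0.014, and the direction turned without αChemR23 mouse 14. Il6 gave -0.435 to -0.254, with an exact permutation p under the threshold without αChemR23 mouse 15 (0.0476) and without hIgG1 mouse 4 (0.0429) or 8 (0.0381). Without any other mouse the exact permutation p for Il6 was 0.0635 to 0.133, above the threshold. Under quantile normalization Il6 differed by -0.361 (exact permutation p = 0.0195), and under its other alternatives by -0.39 to -0.144. It did not pass with equal medians (exact permutation p = 0.0823), with log2(value + 10) (exact permutation p = 0.0563) or by the exact Mann-Whitney test (p = 0.126). Within the limma fit, Il6 was under the unadjusted threshold with no filter (unadjusted p = 0.0439, adjusted p = 0.548) and with the neutrophil score as a covariate (unadjusted p = 0.0305, adjusted p = 0.448). Il6 was not run at a minimum mean of 50, with array weights or with robust eBayes. Of the 4 members in the limma comparison, which leaves out Il6, 0 to 1 were at the unadjusted threshold without 1 mouse (Il6ra without αChemR23 mouse 16). Genes at the adjusted threshold were 1 under quantile normalization (Cdkn1a), 4 with the neutrophil score as a covariate (Cdkn1a among them) and 0 to 3 without 1 mouse (Cdkn1a among the 3 without αChemR23 mouse 10), none of them a member. The causes were not tested. As deposited, 57.4% of the 657 genes were higher in αChemR23 lungs, against 50.4% under quantile normalization or equal medians. Counts near the lowest value limit Il6 and Il11, and 11 mice limit the rest.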
